A study of Homo sapiens with 27 samples.

Results

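Interferon-stimulated genes were followed across starvation, mTOR inhibition and loss of the transcription factors TFE3 and TFEB in 501mel cells, a human melanoma line. The members were taken from a list of 44 symbols: 40 had a row in the table of normalised expression and all 40 reached a value of 1 in at least 3 libraries, so 40 of the 13052 genes tested are described here. OAS2, IRF7, XAF1 and CMPK2 were not analysed here. Unedited (WT) cells were left untreated, kept in HBSS for 12 h, or given 250 nM Torin for 12 h. HBSS is a salt solution with glucose but without amino acids or serum, and Torin1 directly inhibits mTOR, a kinase that senses nutrients. Knockout cells (TFE3 KO, TFEB KO and the double knockout, DKO) were made with Cas9 and each had a 12 h control and a 12 h Torin group. All 9 groups shared the 501mel background. The labels give DMEM with serum as the maintenance medium and the study's methods give RPMI with serum for this line, so the base medium is uncertain. Each knockout genotype was 1 clonal line, and the WT control was labelled as non-treated whereas the knockout controls were labelled as 12 h controls. Clone and genotype therefore cannot be told apart in any comparison between genotypes, those between knockouts included. In a comparison of a knockout with WT, the kind of control cannot be told apart from them either. Each group had 3 libraries of QuantSeq 3′ RNA-seq, which reads the 3′ end of each transcript.

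Interferons are secreted proteins that signal through paired receptors, which for type I interferon act through the JAK1 and TYK2 kinases. The type I receptor leads to phosphorylation of STAT2, which joins IRF9 in a complex that binds the interferon-stimulated response element (ISRE), while type II interferon acts through a shorter palindromic site (GAS). The genes switched on in this way make sensors of foreign RNA, enzymes that degrade or modify RNA, membrane proteins that block virus entry, the ubiquitin-like protein ISG15 with its conjugation enzymes, and regulators that raise or dampen the response itself. Many of them have a measurable level without added interferon. TFEB and TFE3 are related transcription factors that mTORC1 keeps in the cytoplasm in fed cells and that move to the nucleus when mTORC1 is inhibited.

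Promoter sequences are shown for 6 members whose levels the results below turn on: STAT2, DDX60 and PARP14, which were higher with Torin in every genotype; IFIT5, which fell in HBSS; and IFITM3 and OAS3, which differed between the TFE3 and TFEB knockouts. Each runs from 250 bases before to 50 bases after the transcription start of the RefSeq model (GRCh38.p14), 5′ to 3′ in the direction of the gene, and capitals mark matches to the ISRE core, which is GAAA, 2 bases of any kind and GAAA again, on either strand (TTTC, 2 bases and TTTC where the match is on the other strand). STAT2 is at chr12:56360058-56360357 on the minus strand, DDX60 at chr4:168318703-168319002 on the minus strand, PARP14 at chr3:122680589-122680888 on the plus strand, IFIT5 at chr10:89414318-89414617 on the plus strand, IFITM3 at chr11:320811-321110 on the minus strand and OAS3 at chr12:112938224-112938523 on the plus strand.
STAT2: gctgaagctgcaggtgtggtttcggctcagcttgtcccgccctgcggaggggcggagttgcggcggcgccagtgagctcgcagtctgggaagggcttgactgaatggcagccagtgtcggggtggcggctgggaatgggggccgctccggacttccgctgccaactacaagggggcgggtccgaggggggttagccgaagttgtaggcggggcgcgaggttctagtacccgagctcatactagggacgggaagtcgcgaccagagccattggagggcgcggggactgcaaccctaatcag
DDX60: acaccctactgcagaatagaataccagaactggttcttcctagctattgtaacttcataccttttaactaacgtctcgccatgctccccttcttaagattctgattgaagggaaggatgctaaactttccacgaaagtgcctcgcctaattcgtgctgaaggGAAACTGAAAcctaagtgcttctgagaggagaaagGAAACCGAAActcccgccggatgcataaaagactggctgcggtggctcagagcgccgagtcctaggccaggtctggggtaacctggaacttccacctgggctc
PARP14: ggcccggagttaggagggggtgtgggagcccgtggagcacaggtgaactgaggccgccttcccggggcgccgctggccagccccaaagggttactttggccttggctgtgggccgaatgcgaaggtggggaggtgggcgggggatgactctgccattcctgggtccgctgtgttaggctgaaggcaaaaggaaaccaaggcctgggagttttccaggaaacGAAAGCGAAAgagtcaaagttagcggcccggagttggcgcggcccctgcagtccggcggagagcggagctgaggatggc
IFIT5: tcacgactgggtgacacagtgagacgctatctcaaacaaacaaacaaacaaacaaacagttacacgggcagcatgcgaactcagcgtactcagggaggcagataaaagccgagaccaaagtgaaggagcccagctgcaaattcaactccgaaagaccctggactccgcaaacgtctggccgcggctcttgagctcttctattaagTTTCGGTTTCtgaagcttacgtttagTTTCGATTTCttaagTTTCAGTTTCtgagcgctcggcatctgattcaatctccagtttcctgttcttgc
IFITM3: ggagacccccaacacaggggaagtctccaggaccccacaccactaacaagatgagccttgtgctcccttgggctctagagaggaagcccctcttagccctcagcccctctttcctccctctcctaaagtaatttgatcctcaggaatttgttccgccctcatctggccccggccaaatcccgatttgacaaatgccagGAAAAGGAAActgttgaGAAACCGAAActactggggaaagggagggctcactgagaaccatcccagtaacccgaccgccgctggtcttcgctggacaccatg
OAS3: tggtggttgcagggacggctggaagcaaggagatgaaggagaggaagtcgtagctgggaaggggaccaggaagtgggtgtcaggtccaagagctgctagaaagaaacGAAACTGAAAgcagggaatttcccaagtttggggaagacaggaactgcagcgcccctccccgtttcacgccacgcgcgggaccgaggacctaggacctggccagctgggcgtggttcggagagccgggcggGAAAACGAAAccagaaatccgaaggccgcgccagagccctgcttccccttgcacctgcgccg

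The STAT2 window held no ISRE core, that of PARP14 held 1, those of DDX60, IFITM3 and OAS3 held 2 each, and that of IFIT5 held 3. Of the 40 members, 37 had a promoter of this length in the table, and 25 of them (67.6%) held the ISRE core, against 996 of all 27305 promoters (3.65%). The GAS core TTCNNNGAA, searched on both strands, was in 9 of 37 members (24.3%) and in 7.88% of all promoters, and in some windows it overlapped the ISRE core. The E-box CACGTG, the core of the motif that TFEB and TFE3 bind, was in 5 of 37 members (13.5%) and in 7.43% of all promoters. Its extended form TCACGTGA, which contains CACGTG, was in 0 of 37 members and in 1.04% of all promoters. The 5 members with the E-box were ISG20, EIF2AK2, ADAR, IRF9 and TRIM25. A match is a description of the letters in the window and not a bound site.

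The libraries held 4147050 to 6526392 reads in the table, and 3 reads were worth a normalised value of 0.46 to 0.711. A value is a count scaled to the library total (CPM) and divided by a scaling factor of the library. One column was present under both WT HBSS and WT Torin with equal values in all 13523 genes, so it was left out of both groups, which leaves 25 libraries and n = 2 for WT HBSS and for WT Torin. In this column STAT2 was at 33.1 (25.1 and 26.9 in the HBSS libraries kept, 97.0 and 98.8 in the Torin ones), IFIT5 at 4.17 (3.35 and 6.67, 12.8 and 14.3) and SP110 at 24.0 (17.7 and 29.7, 49.5 and 60). Of the genes that passed between HBSS and Torin without it, the column lay nearer the HBSS mean in 5887 of 6416 (91.8%) and in 15 of 19 members. A loss of a call where the column is counted as a Torin library rests on such values. TFE3 was at 5.06 to 7.59 in the TFE3 KO controls and at 5.93 to 6.86 in the DKO controls, against 23.8 to 24.3 in WT, and TFEB was at 0.75 to 1.66 in the TFEB KO controls, 0.156 to 1.05 in the DKO controls and 0.177 to 1.56 in the TFE3 KO controls, against 2.34 to 3.96 in WT. Reads at the 3′ end lie outside the edited sites as far as these files show, so these levels check the labels only in part. All 8 melanocyte lineage markers were in the table with a summed value of 5193 or more in every library, while 0 of 9 lymphoid and myeloid markers and 0 of 3 endothelial markers were in it. Of 5 fibroblast markers, COL1A1 and PDGFRA were in it, at a summed value of 0.396 to 6.31. In bulk RNA a lower level in every cell and fewer cells expressing a gene cannot be told apart.

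The members spanned a wide range of levels. Over the 25 libraries the median normalised value was at least 100 for 4 members, from 10 to under 100 for 13, from 1 to under 10 for 16 and under 1 for 7. IFITM3, a membrane protein that blocks virus entry, TRIM25, a ubiquitin ligase of the RIG-I pathway, the secreted protein LGALS3BP, the RNA editing enzyme ADAR and the RNA-activated kinase EIF2AK2 together made up 49.6 to 62.0% of the summed value of the 40 members in each library. The members nearest the filter were IFITM1 and IFI44, each at 1 or more in 4 of 25 libraries, followed by OAS1 in 5, BST2 in 7 and IFIT2 in 8, and no listed gene present in the table was below it. IFITM1 and OAS1 reached 1 only in libraries of TFEB KO and DKO, and IFI44 only in knockout libraries with Torin. IFI44L was at 1 or more in 10 of 25 libraries, and outside the Torin groups only in DKO control replicate 1 (1.09). These members met the filter through lines or Torin groups in which they are called higher below, so those calls are not independent of the filter. Fold changes are given on the log2(value + 1) scale, which understates the change of such low members. A gene passed when the limma test gave an adjusted p under 0.05 over all 13052 genes. Nothing in the labels says that libraries of a group came from separate cultures, so p-values measure the spread between these libraries, which may be technical. The summed value of the members was 1084 to 1099 in the WT controls and 1087 to 1155 in the TFE3 KO controls. It was 1424 to 1568 in the TFEB KO controls and 1311 to 1412 in the DKO controls, so that each of these libraries lay above all WT and TFE3 KO controls.

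**Figure D1:**
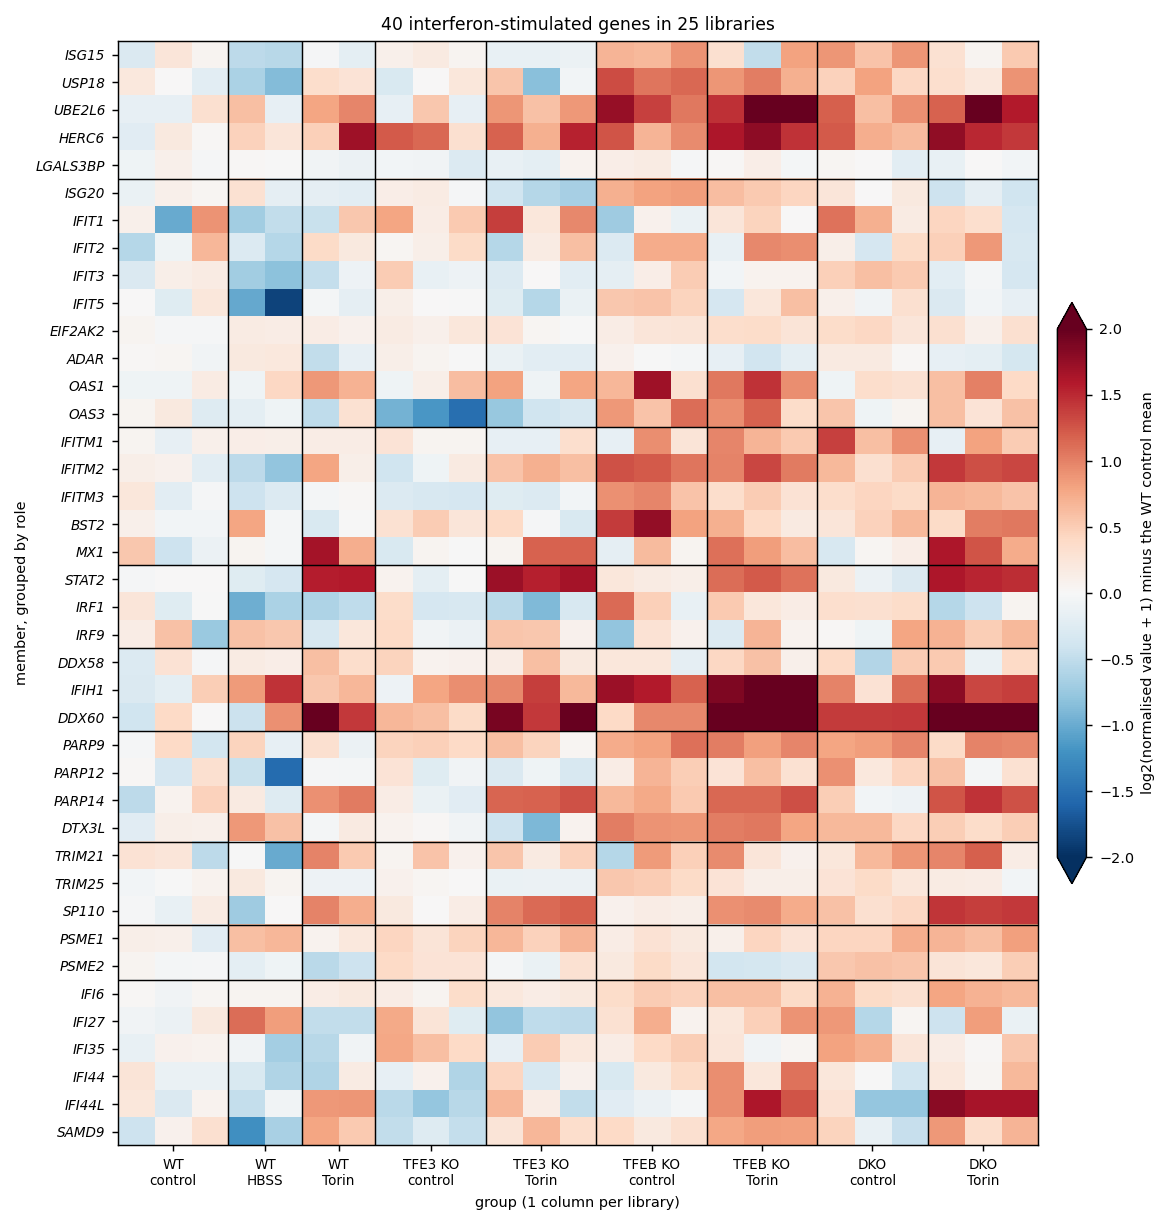
Difference of log2(normalised value + 1) from the mean of the WT controls (colour; values beyond 2 in either direction have the end colour) for the 40 members (rows, ordered by role, lines between roles) in 25 libraries (columns, lines between groups). STAT2, DDX60, PARP14 and SP110 are red in the Torin columns of each genotype, many rows are red in the TFEB KO and DKO columns, and IFIT5 is blue in both HBSS columns.

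Loss of TFEB in fed cells was accompanied by higher levels of many members. Against WT, 16 of 40 members passed and were higher (40%), where 7.46% of all genes tested were. No member passed in the lower direction (0 of 40 by limma, 0 at an unadjusted p under 0.05, and 0 by edgeR or DESeq2), where 7.18% of all genes did; 14.6% of all genes passed in either direction. The median log2 fold change of the 40 members was 0.42, and that of all genes tested was 0.00. At least 2-fold higher were IFIH1, UBE2L6, BST2, IFITM2 and USP18, 5 of 40 members, where 1.42% of all genes passed and were.

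These 5 genes have different roles. IFIH1, the cytosolic sensor of long double-stranded RNA also called MDA5, was at 5.01, 4.5 and 3.15 in the TFEB KO controls and at 0.493, 0.594 and 1.56 in the WT controls (log2 fold change 1.5 ± 0.29 SE, adjusted p = 0.00028). USP18, the protease that removes ISG15 from proteins and dampens receptor signalling, was at 6.38, 5.25 and 5.64 against 2.47, 1.98 and 1.56 (1.18 ± 0.27, adjusted p = 0.0021). IFITM2, a restriction factor of endosomal virus entry, was at 22.5, 21.7 and 19.4 against 9.53, 9.30 and 7.42 (1.19 ± 0.18, adjusted p = 3.0e-06). For each of these 3 genes every TFEB KO control lay above every WT control. Libraries of these 2 groups did not overlap, in either direction, for 28.2% of all genes and 23 of 40 members. UBE2L6, the conjugating enzyme for ISG15, and BST2, the membrane tether of budding virions, were read from few molecules. UBE2L6 had 30 reads in the TFEB KO controls and 2 in the WT controls, a ratio of 15.5 (exact 95% counting interval 3.93 to 134, which covers counting error only). BST2 had 34 and 4 reads, a ratio of 8.77 (3.13 to 34.0).

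**Figure D2:**
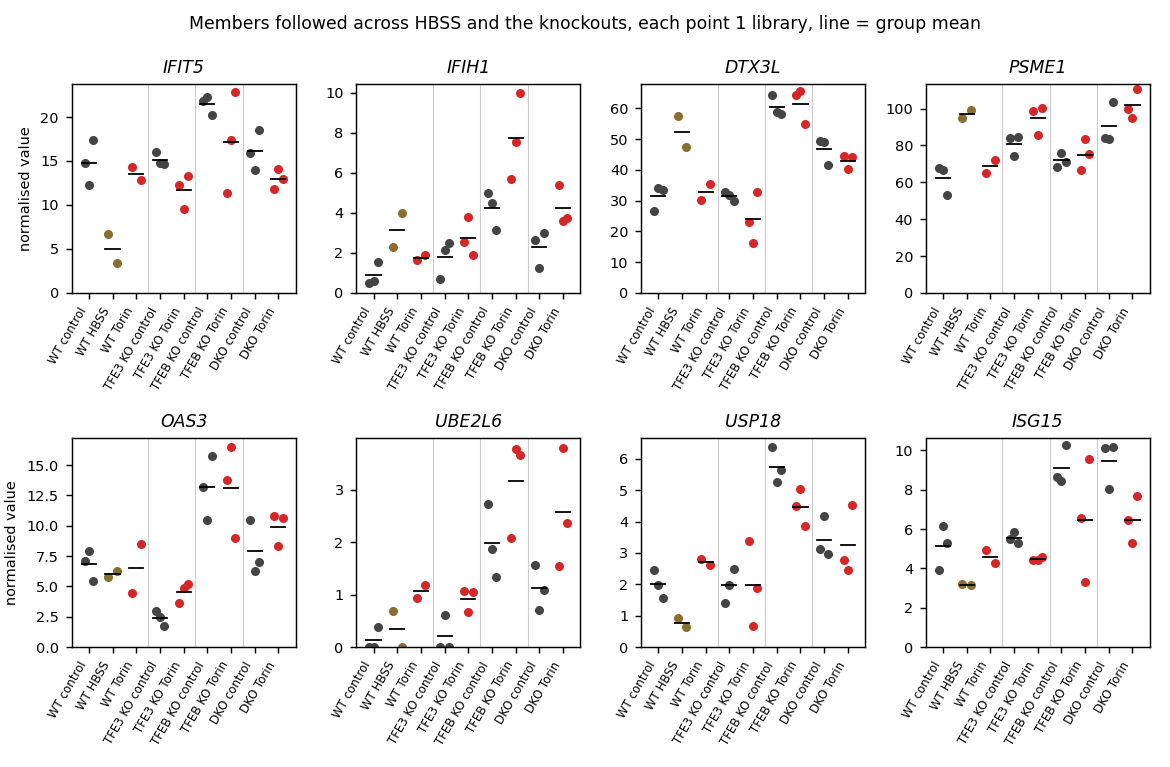
Normalised value (vertical axes, from 0) of 8 members in each of 25 libraries (points) by group, with the group mean as a line; grey points are controls, brown HBSS and red Torin. OAS3 is lowest in the TFE3 KO controls (1.72 to 3) and highest in the TFEB KO groups, and IFIT5 is lowest in HBSS (3.35 and 6.67).

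The ISG15 system was represented by ISG15 itself, UBE2L6, USP18 and HERC6, a relative of the ISG15 ligase. ISG15 was at 8.65, 8.43 and 10.3 in the TFEB KO controls against 3.94, 6.14 and 5.27 in WT (log2 fold change 0.74 ± 0.23, adjusted p = 0.026), and HERC6 was 0.96 ± 0.29 higher (adjusted p = 0.020). All 4 genes were thus higher in this comparison. Among RNA enzymes, the exonuclease ISG20 was at 79.2, 84.7 and 87.2 against 44, 51.7 and 49.4 (0.78 ± 0.11, adjusted p = 1.8e-06), and the 2′-5′ oligoadenylate synthetases OAS3 and OAS1, which act on sensing double-stranded RNA, were 0.85 ± 0.23 and 0.90 ± 0.31 higher. IFITM3 was at 345, 361 and 275 against 214, 159 and 181 (0.82 ± 0.09, adjusted p = 2.9e-09), and TRIM25 at 199, 195 and 179 against 131, 136 and 143 (0.48 ± 0.08, adjusted p = 1.7e-05). No TFEB KO control overlapped a WT control for ISG20, IFITM3 or TRIM25. The values of IFITM1, IFITM2 and IFITM3 carry an uncertainty of their own, since these neighbouring genes on chromosome 11 are near-identical and reads may be split among them.

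DTX3L and PARP9, a ubiquitin ligase and an ADP-ribosyltransferase that work as a complex, lie head to head on chromosome 3, with annotated gene bodies of the hg38 build at chr3:122564338-122575203 and chr3:122527924-122564577, and PARP14 lies downstream at chr3:122680839-122730840. DTX3L was at 64.2, 58.9 and 58.2 in the TFEB KO controls against 26.6, 34.0 and 33.4 in WT (log2 fold change 0.93 ± 0.14, adjusted p = 8.4e-06), and PARP9 at 14.1, 14.8 and 18.4 against 7.89, 10.9 and 6.05 (0.88 ± 0.20, adjusted p = 0.0014). PARP14 was 0.64 ± 0.17 higher (adjusted p = 0.0091), and IFI6, a small protein of the endoplasmic reticulum and mitochondria, 0.45 ± 0.10 higher (adjusted p = 0.00086). STAT2 and IRF9, which carry the interferon signal to the ISRE, did not pass. STAT2 was at 37.6, 36.0 and 34.8 against 31.7, 32.5 and 32.2 (0.16, 95% interval -0.05 to 0.38), and IRF9 had a log2 difference of -0.14 (-0.75 to 0.48). The STAT2 libraries did not overlap between the groups, but the difference was small.

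Of the 16 calls in TFEB KO, 11 passed without any single library and under every alternative test, filter and scaling that included the gene. ISG15, HERC6, OAS1, OAS3 and PARP14 did not. Among the 11, UBE2L6 and BST2 were too low for the filter of at least 5 and were not tested with it. PARP14 was lost without WT control replicate 1 (adjusted p = 0.101) and OAS3 without WT control replicate 3 or TFEB KO replicate 3 (0.0655 and 0.0604). HERC6 was lost without replicate 1 of either group (0.0882 and 0.106), ISG15 without replicate 1 or 3 of either group (0.0521 to 0.141) and OAS1 without any of 5 of the 6 libraries (0.0559 to 0.368).

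Many members were also higher in the double knockout. Of 40 members, 15 passed and were higher in the DKO controls than in WT (37.5%), where 5.64% of all genes tested were. No member passed in the lower direction (0 by limma, 0 at an unadjusted p under 0.05, and 0 by edgeR or DESeq2), where 7.49% of all genes did (13.1% in all). The median log2 fold change was 0.41 for the members and 0.00 for all genes. DDX60, a helicase that assists RNA sensing, was the only member at least 2-fold higher, where 0.636% of all genes passed and were, and was at 4.21, 4.18 and 4.23 in the DKO controls against 0.493, 1.58 and 0.976 in WT (1.4 ± 0.28, adjusted p = 0.00021). The DKO libraries differed little from each other and lay well above WT. Libraries of these groups did not overlap for 26.9% of all genes and 20 of 40 members.

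The proteasome activator subunits PSME1 and PSME2, which alter how peptides are cut for antigen presentation, were among the members higher in DKO. PSME2 was at 53.6, 55.4 and 54.2 against 38.3, 35.6 and 36.1 (log2 fold change 0.56 ± 0.11, adjusted p = 0.00037) and PSME1 at 84.3, 83.5 and 104 against 67.7, 66.5 and 53.1 (0.53 ± 0.10, adjusted p = 0.00016). EIF2AK2, also called PKR, was 0.34 ± 0.09 higher (adjusted p = 0.0042). Both knockout lines without TFEB shared 8 of their higher members, namely DTX3L, HERC6, IFI6, IFITM3, ISG15, PARP9, TRIM25 and UBE2L6. That is 50% of the TFEB KO list and 53.3% of the DKO list, and both lists were taken against the same 3 WT controls. Of all genes, 974 were higher in TFEB KO and 736 in DKO, and the overlap of those lists was not counted. Whether the members shared more than genes in general was therefore not tested. In DKO, DTX3L was at 49.4, 49.2 and 41.6 (0.57 ± 0.14), PARP9 at 14.6, 15.2 and 16.7 (0.86 ± 0.20), ISG15 at 10.1, 8.02 and 10.2 (0.78 ± 0.23) and IFITM3 at 235, 246 and 239 (0.38 ± 0.09). The other higher members in DKO were IFITM1, SP110 and IFIT3, at log2 fold changes of 0.96, 0.44 and 0.54, of which IFITM1 rested on 23 reads against 2, a ratio of 10.1 (2.49 to 88.2).

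Of these 15 calls, 8 held under every alternative run: EIF2AK2, IFITM3, DDX60, PARP9, DTX3L, PSME1, PSME2 and IFI6. The other 7 did not pass without 1 library of the comparison (adjusted p 0.0511 to 0.218): TRIM25 without DKO replicate 2, SP110 and IFITM1 without WT control replicate 2 or DKO replicate 1, ISG15 without WT control replicate 1 or DKO replicate 1 or 3, UBE2L6 without WT control replicate 1 or 2 or DKO replicate 1 or 3, and HERC6 and IFIT3 without any of 5 of the 6 libraries. Without DKO replicate 1 the count of members that passed was 9 in place of 15.

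**Figure D3:**
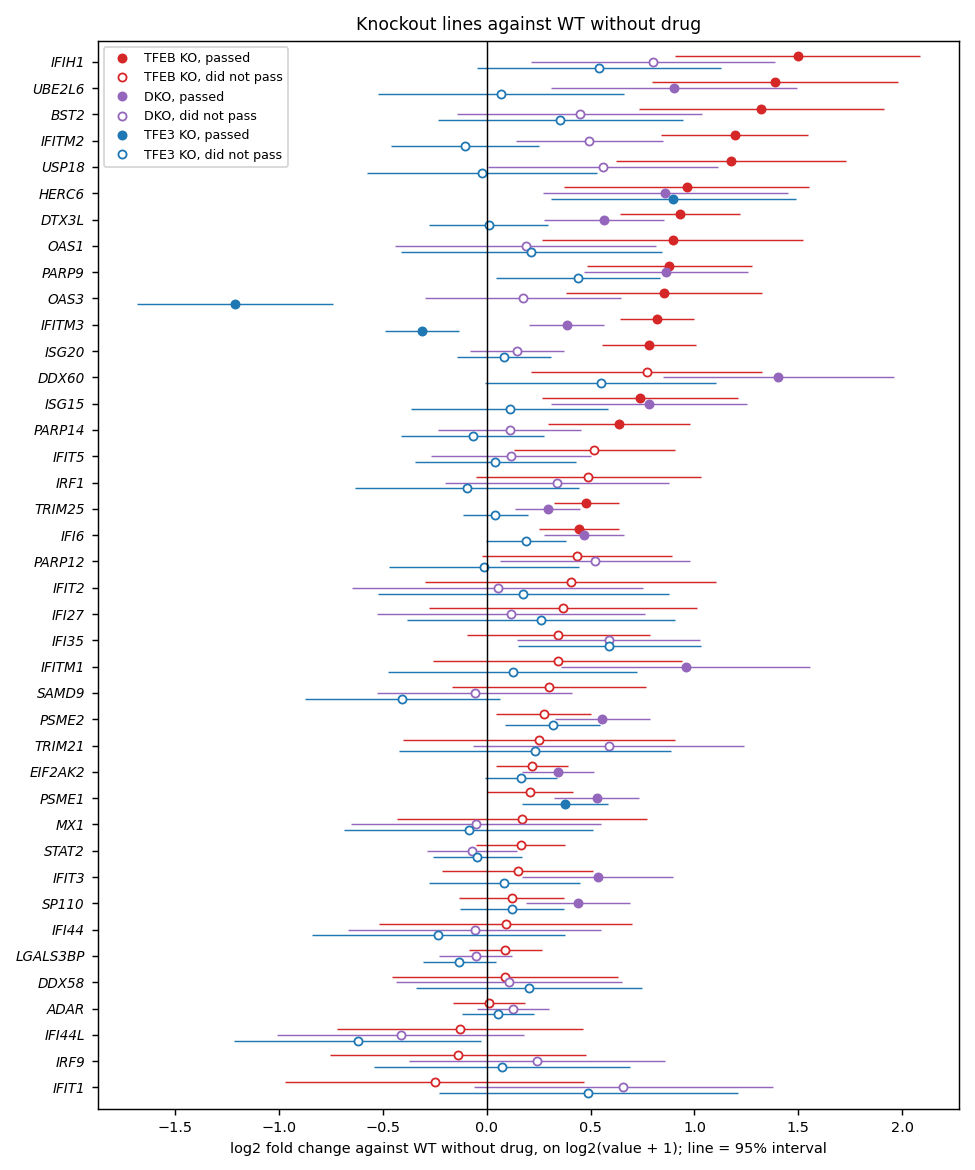
Log2 fold change against WT without drug, on log2(value + 1), of 40 members (rows, ordered by the TFEB KO value) in TFEB KO (red), DKO (purple) and TFE3 KO (blue); lines are 95% intervals from limma and filled points passed. No filled red or purple point lies left of 0, and OAS3 (-1.21) and IFITM3 (-0.31) are the blue filled points left of 0.

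In the TFE3 KO cells, whose TFEB level was also below that of WT, few members passed. Of 40 members, 4 passed in TFE3 KO against WT, 2 higher and 2 lower, where 3.57% of all genes tested were higher and 5.84% lower (9.41% in all). OAS3 was at 3, 2.45 and 1.72 in the TFE3 KO controls against 7.07, 7.92 and 5.46 in WT (log2 fold change -1.21 ± 0.23, adjusted p = 0.00023), and no library of one group overlapped the other. Libraries of these groups did not overlap for 27.5% of all genes and 11 of 40 members. The OAS3 call held under every alternative run. IFITM3 was at 152, 147 and 145 against 214, 159 and 181 (-0.31 ± 0.09, adjusted p = 0.018), PSME1 was 0.38 ± 0.10 higher (adjusted p = 0.011) and HERC6 0.90 ± 0.29 higher (adjusted p = 0.042), with 37 reads against 9. These 3 calls each ended without 1 library: IFITM3 without WT control replicate 1 or TFE3 KO replicate 2 or 3, PSME1 without WT control replicate 3 or TFE3 KO replicate 1 or 3, and HERC6 without any of 5 of the 6 libraries (adjusted p 0.0502 to 0.206).

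The single knockouts were also set side by side. In TFE3 KO against TFEB KO, 15 of 40 members passed and all were lower in TFE3 KO, where 15.6% of all genes tested were lower and 14.3% higher (29.9% in all). No member passed in the higher direction (0 by limma, 1 at an unadjusted p under 0.05, and 0 by edgeR or DESeq2). The median log2 difference of the members was -0.29. OAS3, at 1.72 to 3 in TFE3 KO and 10.5 to 15.7 in TFEB KO, had a log2 difference of -2.06 ± 0.23 (adjusted p = 1.6e-09). IFITM3 followed at -1.13 ± 0.09 (adjusted p = 2.9e-14), IFITM2 at -1.30 ± 0.18, UBE2L6 at -1.32 ± 0.29 and USP18 at -1.20 ± 0.27, so 5 members differed at least 2-fold, where 3.62% of all genes passed and were lower by that much. The other members lower in TFE3 KO were BST2, IFIH1, DTX3L, PARP14, SAMD9, ISG20, ISG15, TRIM25, IFI6 and LGALS3BP. Of the 15, OAS3, IFITM3, IFITM2, UBE2L6, USP18, ISG20, PARP14, DTX3L and TRIM25 held under every alternative that included the gene. UBE2L6 was too low for the filter of at least 5. The other 6 were lost without 1 library (adjusted p 0.053 to 0.275). BST2 was lost without TFEB KO replicate 2, IFIH1 without replicate 1 of either line, SAMD9 without TFE3 KO replicate 1 or 3 or TFEB KO replicate 1, IFI6 and LGALS3BP without any of 4 libraries, and ISG15 without any 1 of the 6.

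The double knockout lay between the single knockouts for some of these genes. Against TFE3 KO, 5 members passed and were higher in DKO, where 2.65% of all genes were higher and 2.22% lower (4.87% in all): OAS3 (log2 fold change 1.39 ± 0.23, adjusted p = 7.0e-05), IFITM3 (0.69 ± 0.09, adjusted p = 3.2e-07), IFITM2 (0.60 ± 0.18), DTX3L (0.56 ± 0.14) and TRIM25 (0.25 ± 0.08). No member passed in the lower direction (0 by limma, 0 at an unadjusted p under 0.05, and 0 by edgeR or DESeq2). Against TFEB KO, 6 members passed and were lower in DKO and 1 was higher, where 13.7% of all genes were lower and 11.8% higher (25.5% in all). ISG20 (-0.64 ± 0.11), IFITM2 (-0.70 ± 0.18), IFITM3 (-0.43 ± 0.09), OAS3 (-0.68 ± 0.23), BST2 (-0.87 ± 0.29) and PARP14 (-0.53 ± 0.17) were the lower ones and PSME1 (0.32 ± 0.10) the higher one. OAS3, IFITM2 and IFITM3 were therefore highest in TFEB KO, lowest in TFE3 KO and in between in DKO, and each of the steps passed. The OAS3 and IFITM3 steps from TFE3 KO to DKO and the ISG20, IFITM2 and IFITM3 steps from DKO to TFEB KO held under every alternative; the other calls in these comparisons ended without 1 library. From TFE3 KO to DKO, IFITM2 was lost without TFE3 KO replicate 1 or 2 or DKO replicate 1 or 3, DTX3L without TFE3 KO replicate 3 or DKO replicate 1 or 2, and TRIM25 without any of 5 libraries (adjusted p 0.0563 to 0.252). Against TFEB KO, PSME1 was lost without TFEB KO replicate 1 or DKO replicate 3, and OAS3, BST2 and PARP14 without any of 4 libraries (adjusted p 0.0543 to 0.155); the counts fell to 2 members without DKO replicate 1 in the first comparison and to 3 without TFEB KO replicate 1 in the second.

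**Figure D4:**
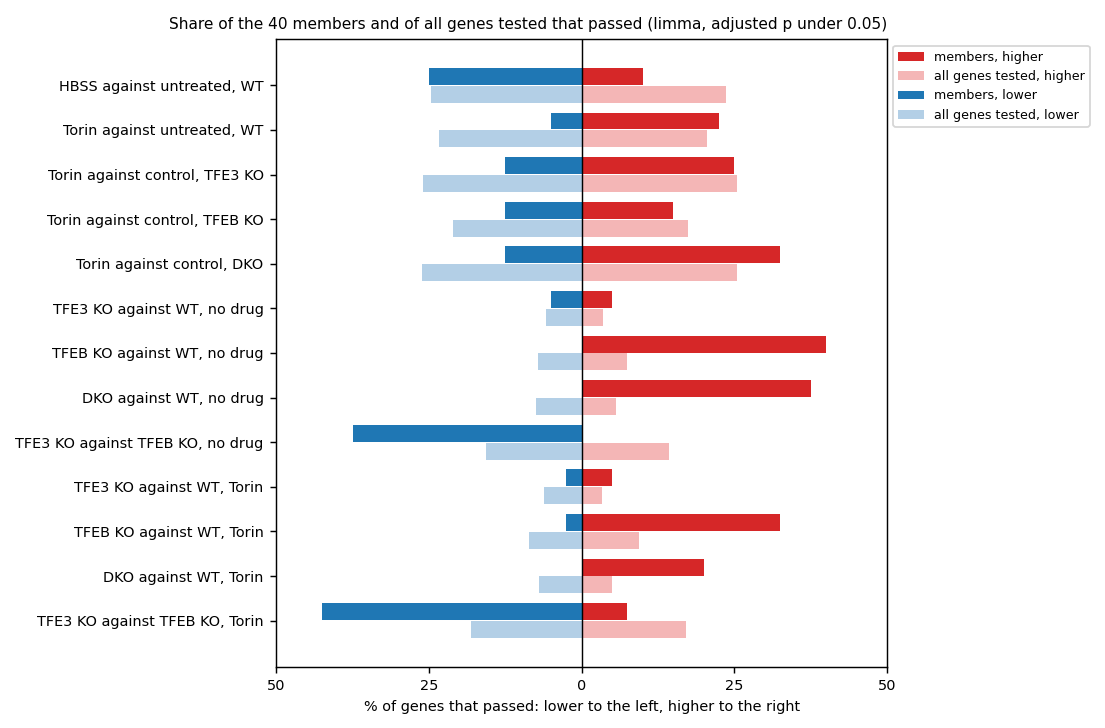
Share of the 40 members (dark bars) and of all 13052 genes tested (pale bars) that passed in each of 13 comparisons, higher to the right in red and lower to the left in blue. The dark red bars reach 40% for TFEB KO and 37.5% for DKO against WT without drug, beside pale bars of 7.46% and 5.64%.

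With Torin in WT cells a smaller share of the members than of all genes passed, and a few members rose strongly. In WT, 11 of 40 members passed (27.5%), 9 higher and 2 lower, where 43.9% of all genes tested passed, 20.5% higher and 23.4% lower. STAT2, the signal transducer that forms the ISRE-binding complex, was at 97.0 and 98.8 with Torin against 31.7, 32.5 and 32.2 without (log2 fold change 1.58 ± 0.12, adjusted p = 3.3e-15). DDX60 was at 7.5 and 4.27 against 0.493, 1.58 and 0.976 (1.77 ± 0.31, adjusted p = 6.6e-06) and PARP14, an ADP-ribosyltransferase, at 46.4 and 50.5 against 16.4, 25.3 and 33.8 (0.97 ± 0.19, adjusted p = 8.2e-05). In these 3 genes the Torin libraries lay above all controls, and the calls held under every alternative run. Torin and control libraries did not overlap, in either direction, for 60.2% of all genes and 23 of 40 members.

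The other members higher with Torin in WT were MX1, a dynamin-like GTPase that traps viral ribonucleoproteins (1.20 ± 0.33), HERC6 (1.09 ± 0.33), UBE2L6 (0.88 ± 0.33), IFI44L (0.87 ± 0.33), the nuclear body protein SP110 (0.86 ± 0.14) and SAMD9, a restriction factor of poxviruses (0.66 ± 0.26). STAT2, DDX60, MX1 and HERC6 were at least 2-fold higher, 4 of 40 members, where 5.66% of all genes passed and were. The lower ones were PSME2 (-0.48 ± 0.13) and ADAR (-0.33 ± 0.10). Of these 8 calls, 6 were lost without 1 library. Without WT Torin replicate 2, MX1 and ADAR did not pass (adjusted p = 0.175 and 0.296), and without replicate 3, HERC6 did not (0.362). UBE2L6, IFI44L and SAMD9 were lost without either Torin library and also without 1 or more controls (0.0595 to 0.223): UBE2L6 and SAMD9 without WT control replicate 1, and UBE2L6 and IFI44L without WT control replicate 2. The count of members that passed was 6 without WT Torin replicate 2. SP110 and PSME2 were lost only where the column shared by HBSS and Torin was counted as a Torin library. SAMD9 then had a log2 fold change of -0.03, on the other side of 0.

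STAT2, DDX60, PARP14 and SP110 also rose with Torin in each knockout. In TFE3 KO, 15 members passed, 10 higher and 5 lower, where 25.4% of all genes were higher and 26% lower (51.4% in all). In TFEB KO, 11 passed, 6 higher and 5 lower, where 17.4% of all genes were higher and 21% lower (38.3% in all). In DKO, 18 passed, 13 higher and 5 lower, where 25.4% of all genes were higher and 26.2% lower (51.6% in all). STAT2, DDX60, PARP14, SP110 and IFI44L, 5 of the 40, were higher with Torin in all 4 genotypes, where 10.6% of all genes were. IFI44L met the filter through its Torin libraries, so its place among the 5 is not independent of the filter. ADAR was lower in all 4, where 14.2% of all genes were. The WT call of IFI44L was also lost by edgeR, by DESeq2 and with a pseudocount of 0.1. In 3 of the 4 genotypes, MX1 and UBE2L6 were also higher and so was SAMD9, and PSME2 was lower.

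STAT2 was at 107, 96.2 and 104 with Torin in TFE3 KO against 33.9, 27.9 and 31.8 in its control (log2 fold change 1.69 ± 0.11, adjusted p = 2.8e-18). In DKO it was at 101, 94.1 and 90.9 against 37.1, 29.5 and 26.1 (1.61 ± 0.11, adjusted p = 1.8e-17). In TFEB KO it reached 70.9, 76.3 and 69.2 against 37.6, 36.0 and 34.8 (0.98 ± 0.11, adjusted p = 2.9e-10). Every Torin library of TFEB KO was thus below every Torin library of the other genotypes, while the controls overlapped or differed little. Torin libraries of TFEB KO and WT did not overlap, in either direction, for 45.8% of all genes. For TFE3 KO and TFEB KO the share was 45.1%. Separation from all the other genotypes at once was not counted over all genes. The Torin response of STAT2 was smaller in TFEB KO than in WT, with a log2 difference of -0.60 ± 0.16 (adjusted p = 0.0449). STAT2 was the only member of 40 that passed this test of the difference, where 1.16% of all genes passed, 0.345% with a smaller and 0.812% with a larger response value in TFEB KO, and its call ended in 10 of the 11 fits that left out 1 library, all but the one without TFEB KO control replicate 3 (adjusted p 0.0505 to 0.171). It also ended in a fit of the compared libraries alone and wherever the shared column was kept, and with that column as a Torin library the log2 difference was -0.09 (adjusted p = 0.953).

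For the differences between the Torin responses of TFE3 KO and WT and of DKO and WT, no member passed. For TFE3 KO the count was 0 by limma, edgeR and DESeq2 and 3 at an unadjusted p under 0.05 (1.06% of all genes passed, 0.49% higher and 0.575% lower), and for DKO it was 0 by each tool and 1 at an unadjusted p (0.506% of all genes passed, 0.314% higher and 0.192% lower). For STAT2 the 95% intervals of these differences ran from -0.21 to 0.43 for TFE3 KO and from -0.29 to 0.35 for DKO. Comparisons of the knockouts with each other, which do not use the 2 WT Torin libraries, were added after the data had been seen. The STAT2 response was larger than in TFEB KO by 0.71 ± 0.15 in TFE3 KO (adjusted p = 0.0013) and by 0.63 ± 0.15 in DKO (adjusted p = 0.0065), where 7.68% and 5.62% of all genes passed. Both calls held without any single library (adjusted p at most 0.0093 and 0.0341) and by edgeR. Between DKO and TFE3 KO, 0 members passed by limma or edgeR and 1 had an unadjusted p under 0.05, where 0.0536% of all genes passed.

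**Figure D5:**
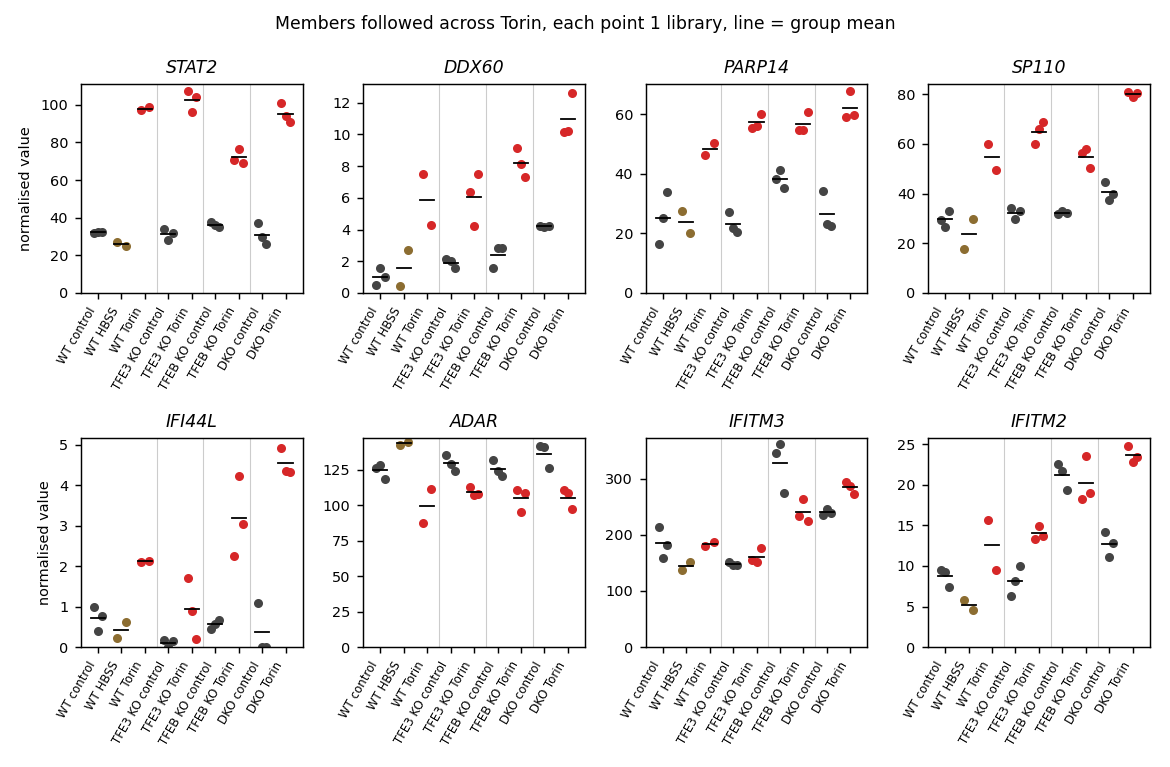
Normalised value (vertical axes, from 0) of 8 members in each of 25 libraries (points) by group, with the group mean as a line; grey points are controls, brown HBSS and red Torin. STAT2 reaches 69.2 to 76.3 with Torin in TFEB KO and 90.9 to 107 with Torin in the other genotypes.

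IFITM2 and IFITM3 differed in their Torin responses between knockouts, and IFITM1 did not pass this test. IFITM3 was at 233, 263 and 224 with Torin in TFEB KO against 345, 361 and 275 in its control (log2 fold change -0.44 ± 0.09, adjusted p = 9.3e-05), and at 293, 287 and 273 in DKO against 235, 246 and 239 (0.24 ± 0.09, adjusted p = 0.020). It was the only member that passed with opposite signs in the 4 Torin comparisons. IFITM2 was at 24.8, 22.8 and 23.4 with Torin in DKO against 14.2, 11.2 and 12.8 (0.85 ± 0.18, adjusted p = 7.3e-05) and at 13.4, 14.9 and 13.7 in TFE3 KO against 6.36, 8.13 and 9.98 (0.73 ± 0.18, adjusted p = 0.00051). In TFEB KO it was at 18.3, 23.6 and 18.9 against 22.5, 21.7 and 19.4 and did not pass. The response differed from that in TFEB KO by 0.56 ± 0.13 in TFE3 KO and 0.68 ± 0.13 in DKO for IFITM3 (adjusted p = 0.0025 and 0.00031), in each case without exception when 1 library was left out. For IFITM2 the differences were 0.80 ± 0.25 and 0.92 ± 0.25 (adjusted p = 0.0365 and 0.0182). That in TFE3 KO was lost in 8 of 12 fits without 1 library, those without TFE3 KO control replicate 1 or 2, TFE3 KO Torin replicate 2 or 3, TFEB KO control replicate 1 or 2, or TFEB KO Torin replicate 1 or 3 (adjusted p 0.0583 to 0.13), and that in DKO without DKO control replicate 2 or TFEB KO Torin replicate 1 or 3 (0.05 to 0.0571). For IFITM1 the differences from TFEB KO were -0.51 ± 0.42 in TFE3 KO and -0.96 ± 0.42 in DKO (adjusted p = 0.534 and 0.188), of the other sign. The call of IFITM3 in DKO itself was lost without DKO control replicate 1 or Torin replicate 1 or 2 (0.0529 to 0.0679).

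IFI44L, whose product is known as an interferon-induced regulator of innate signalling, had log2 fold changes of 0.73 to 2.11 with Torin in the knockouts. It was at 4.92, 4.36 and 4.33 with Torin in DKO against 1.09, 0 and 0 (2.11 ± 0.29, adjusted p = 5.0e-08), from 77 reads against 7, a ratio of 12.1 (5.6 to 31.1). In TFEB KO it had 55 reads with Torin and 9 without, a ratio of 5.64 (2.76 to 13.0), and in TFE3 KO 13 and 2, a ratio of 8.62 (1.95 to 78.7). The TFE3 KO call ended without any of 5 of the 6 libraries (adjusted p 0.0541 to 0.251). DDX60 was at 10.2, 10.2 and 12.6 with Torin in DKO (1.20 ± 0.28), 9.14, 8.17 and 7.33 in TFEB KO (1.45 ± 0.28) and 6.36, 4.23 and 7.49 in TFE3 KO (1.26 ± 0.28). SP110 was at 81.1, 78.9 and 80.5 with Torin in DKO against 44.7, 37.3 and 39.9 (0.97 ± 0.12, adjusted p = 8.4e-09), and its log2 fold change was 0.98 ± 0.12 in TFE3 KO and 0.75 ± 0.12 in TFEB KO. PARP14 had log2 fold changes of 1.28 ± 0.17 in TFE3 KO, 0.56 ± 0.17 in TFEB KO and 1.21 ± 0.17 in DKO. The STAT2, DDX60, PARP14 and SP110 calls of all 3 knockouts held under every alternative.

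Other members moved with Torin in some of the knockouts. ISG20 was lower in TFE3 KO (36.3, 32.3 and 30.0 against 52.8, 54.0 and 47.2; log2 fold change -0.63 ± 0.11, adjusted p = 5.8e-06) and in DKO (-0.47 ± 0.11, adjusted p = 0.00043). MX1 was higher in DKO (1.25 ± 0.30, adjusted p = 0.00044) and in TFE3 KO (0.89 ± 0.30, lost without TFE3 KO Torin replicate 2 or 3 at an adjusted p of 0.075). IFIT3, one of the tetratricopeptide proteins that bind foreign RNA, was lower in DKO (12.0, 13.7 and 11.0 against 20.1, 22 and 20.7; -0.73 ± 0.18, adjusted p = 0.00067). PSME2 was lower in TFEB KO (28.3, 28.4 and 29.9 against 42.1, 48.0 and 43.8; -0.61 ± 0.11, adjusted p = 2.6e-05) and in TFE3 KO (-0.27 ± 0.11, adjusted p = 0.041). The groups did not overlap for ISG20 in TFE3 KO, IFIT3 in DKO and PSME2 in TFEB KO, where 58.4%, 57.1% and 47.2% of all genes did not. TRIM25 was lower in TFEB KO (-0.31 ± 0.08, adjusted p = 0.0015), and SAMD9 was higher in TFE3 KO (0.83 ± 0.23, adjusted p = 0.0024). Apart from MX1 in TFE3 KO and PSME2 in TFE3 KO, these calls held under every alternative, whereas PSME2 in TFE3 KO was lost in 5 of 6 fits without 1 library, with edgeR and with DESeq2.

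The remaining Torin calls in the knockouts were lost without at least 1 library. In TFE3 KO these were OAS3 (0.72), UBE2L6 (0.71), ADAR (-0.24), DTX3L (-0.43) and IFI27 (-0.87), with adjusted p of 0.0669 to 0.277 when lost; UBE2L6 was lost without control replicate 1 or 3 or Torin replicate 1 or 3, and IFI27 without replicate 1 of either group. In TFEB KO they were IFIH1 (0.73), BST2 (-0.89) and ADAR (-0.26), with adjusted p of 0.0613 to 0.2. IFIH1 was lost without replicate 2 or 3 of either group, BST2 without control replicate 2 or Torin replicate 3, and ADAR without control replicate 1 or Torin replicate 2. In DKO they were SAMD9 (0.69), UBE2L6 (0.72), HERC6 (0.70), IFIH1 (0.70), IFI6 (0.24), IRF1 (-0.65) and TRIM25 (-0.21), with adjusted p of 0.0518 to 0.26, all of these values log2 fold changes. OAS3 rested on TFE3 KO control replicate 3 and DTX3L on TFE3 KO Torin replicate 2, and ADAR in TFE3 KO on control replicate 1. In DKO, SAMD9 rested on control replicate 3 and Torin replicate 1, TRIM25 on control replicate 2 and Torin replicate 3, IFIH1 on control replicate 2 and Torin replicate 1 or 3, and the other 4 on 4 or 5 of the 6 libraries each. ADAR held under every alternative in DKO (110, 108 and 97.0 against 141, 141 and 126; -0.37 ± 0.09, adjusted p = 0.00034).

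The knockouts were also compared under Torin. In TFEB KO against WT, 14 members passed, 13 higher and 1 lower, where 9.39% of all genes were higher and 8.56% lower (18% in all). IFIH1 was at 5.69, 7.54 and 9.98 against 1.64 and 1.90 (log2 fold change 1.63 ± 0.33, adjusted p = 0.0003), DTX3L at 64.3, 65.5 and 54.8 against 30.2 and 35.3 (0.89 ± 0.16, adjusted p = 7.9e-05) and ISG20 at 74.8, 70.0 and 65.6 against 42.4 and 41.7 (0.72 ± 0.13, adjusted p = 4.0e-05). These were the 3 calls that held under every alternative, and the TFEB KO libraries lay above both WT libraries in each. Libraries of these groups did not overlap, in either direction, for 45.8% of all genes and 26 of 40 members. The other higher members were IFI27, UBE2L6, IFI44, OAS3, IRF1, PARP9, IFITM2, IFITM3, IFI6 and TRIM25, at log2 fold changes of 0.27 to 1.03. STAT2 was the lower one (-0.44 ± 0.12, adjusted p = 0.0078), and its log2 difference was 0.07 where the shared column was kept as a Torin library. These 11 calls were each lost without at least 1 library, WT Torin replicate 2 or 3 among them for every gene (adjusted p 0.0503 to 0.412). The count of members that passed was 5 and 6 without WT Torin replicate 2 and 3, and 8 without TFEB KO Torin replicate 2.

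In DKO against WT under Torin, 8 members passed and were higher, where 5.03% of all genes were higher and 7.03% lower (12.1% in all). No member passed in the lower direction (0 by limma, 0 at an unadjusted p under 0.05, and 0 by edgeR or DESeq2). PSME2 was at 44.1, 43.1 and 52.1 against 24.8 and 27.3 (log2 fold change 0.81 ± 0.13, adjusted p = 1.0e-05), IFITM3 at 293, 287 and 273 against 179 and 187 (0.63 ± 0.10, adjusted p = 9.7e-06) and PSME1 at 99.99, 95 and 111 against 65.2 and 72.3 (0.56 ± 0.11, adjusted p = 0.0005). IFI6 followed at 0.53 ± 0.11 (adjusted p = 0.00039), and these 4 held under every alternative. BST2 (0.98), IFITM2 (0.90), PARP9 (0.68) and SP110 (0.55) were lost without WT Torin replicate 3, BST2 also without WT Torin replicate 2 or DKO Torin replicate 2 or 3 and PARP9 also without DKO Torin replicate 2 or 3 (adjusted p 0.0956 to 0.365), and 4 members passed without WT Torin replicate 3. In TFE3 KO against WT under Torin, PSME1 (0.46 ± 0.11) and PSME2 (0.52 ± 0.13) were higher and DTX3L (-0.48 ± 0.16) lower, 3 of 40 members, where 3.41% of all genes were higher and 6.23% lower (9.64% in all). None of these 3 passed without WT Torin replicate 2 (adjusted p 0.0879 to 0.125), and PSME2 was also lost without TFE3 KO Torin replicate 3 and DTX3L without 3 other libraries.

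TFE3 KO against TFEB KO under Torin used no WT library and gave the largest count. Of 40 members, 20 passed (50%), 17 lower and 3 higher in TFE3 KO, where 18.1% of all genes were lower and 17.1% higher (35.2% in all). At least 2-fold lower were 7 members, where 4.34% of all genes passed and were. DTX3L was at 23.1, 16.3 and 32.7 in TFE3 KO against 64.3, 65.5 and 54.8 in TFEB KO (log2 difference -1.37 ± 0.14, adjusted p = 2.2e-10). OAS3 was at 3.60, 4.90 and 5.20 against 13.8, 16.5 and 8.96 (-1.31 ± 0.23, adjusted p = 1.4e-05), and ISG20 at 36.3, 32.3 and 30.0 against 74.8, 70.0 and 65.6 (-1.07 ± 0.11, adjusted p = 1.0e-10). For each of these genes the TFE3 KO libraries lay below all TFEB KO libraries. Libraries of the 2 lines did not overlap, in either direction, for 45.1% of all genes and 22 of 40 members. IFIH1 (-1.23), IFI44L (-1.16), IFI27 (-1.14) and UBE2L6 (-1.09) were the other members at least 2-fold lower. The 3 higher members were STAT2 (0.50 ± 0.11, adjusted p = 0.00021), PSME2 (0.38 ± 0.11) and PSME1 (0.33 ± 0.10). USP18, IRF1, PARP12, PARP9, IFITM3, IFITM2, IFIT5, IFI6, TRIM25 and EIF2AK2 were the remaining lower ones, at log2 differences of -0.98 to -0.23. Of the 20 calls, 10 held under every alternative that included the gene: DTX3L, OAS3, ISG20, IFIH1, IFI44L, IFI27, STAT2, IFITM3, TRIM25 and IFI6. IFI44L and IFI27 were too low for the filter of at least 5. UBE2L6 was lost only with a pseudocount of 0.1, and the other 9 without at least 1 library (adjusted p 0.0503 to 0.366), among them USP18 without TFE3 KO Torin replicate 2, PSME1 without TFEB KO Torin replicate 1 and PSME2 without TFE3 KO Torin replicate 3.

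HBSS, which removes amino acids and serum, gave a share of lower members near that of all genes and a smaller share of higher ones. Of 40 members, 14 passed in WT (35%), 4 higher and 10 lower, where 48.3% of all genes tested passed, 23.6% higher and 24.7% lower. The median log2 fold change of the members was -0.02, that of all genes was -0.03, and 20 of the 40 were higher at any p. IFIT5, an RNA-binding protein with tetratricopeptide repeats, was at 6.67 and 3.35 in HBSS against 14.8, 12.3 and 17.4 in the untreated cells (log2 fold change -1.44 ± 0.22, adjusted p = 2.2e-07). IFIT3, of the same gene cluster on chromosome 10, was at 8.28 and 7.53 against 11.3, 15.4 and 16.0 (-0.76 ± 0.20, adjusted p = 0.0015). The HBSS libraries lay below all controls in both genes. HBSS and control libraries did not overlap, in either direction, for 63.1% of all genes and 21 of 40 members. DTX3L was at 57.5 and 47.3 against 26.6, 34.0 and 33.4 (0.73 ± 0.16, adjusted p = 0.0002), and PSME1 at 94.8 and 99.2 against 67.7, 66.5 and 53.1 (0.64 ± 0.11, adjusted p = 7.5e-06), with every HBSS library above every control. These 4 calls held under every alternative run, and PARP9, the partner of DTX3L, was at 11.3 and 7.12 against 7.89, 10.9 and 6.05 and did not pass.

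IFIH1 was the one member at least 2-fold higher in HBSS and IFIT5 the one at least 2-fold lower, where 6.9% and 6.2% of all genes passed and changed by that much. IFIH1 was at 2.30 and 3.98 against 0.493, 0.594 and 1.56 (log2 fold change 1.15 ± 0.33, adjusted p = 0.003), and IFI27 was 0.98 ± 0.36 higher. Lower were PARP12 (-0.99 ± 0.25), SAMD9 (-0.94 ± 0.26), the transcription factor IRF1 (-0.81 ± 0.30), USP18 (-0.75 ± 0.31), IFITM2 (-0.66 ± 0.20), SP110 (-0.35 ± 0.14), IFITM3 (-0.34 ± 0.10) and STAT2 (-0.29 ± 0.12). With n = 2 in HBSS, all 10 of these calls depended on single libraries. Without HBSS replicate 2, IFIH1, PARP12 and IFITM2 did not pass (adjusted p = 0.0972, 0.231 and 0.0887), and without HBSS replicate 1, SAMD9, IRF1, IFI27, IFITM3 and SP110 did not (0.0935 to 0.985). SP110, at 17.7 and 29.7 in HBSS, had a log2 fold change of 0.01 without replicate 1. IRF1 and IFITM3 were lost without WT control replicate 1 too, IFI27 without replicate 2 and SP110 without replicate 3, while USP18 and STAT2 were lost without either HBSS library or most of the controls (adjusted p up to 0.204). The counts of members that passed were 8 and 9 without HBSS replicate 1 and 2.

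HBSS and Torin were compared directly in WT, each with n = 2. Of 40 members, 19 passed, 13 lower and 6 higher in HBSS, where 23.1% of all genes were lower and 26.1% higher (49.2% in all). STAT2, at 26.9 and 25.1 in HBSS and 97.0 and 98.8 with Torin, differed by -1.87 ± 0.13 on the log2 scale (adjusted p = 1.9e-16). SP110 differed by -1.21 ± 0.15 (adjusted p = 6.4e-09), IFITM2 by -1.10 ± 0.22 (adjusted p = 3.5e-05) and PARP14 by -1.01 ± 0.21 (adjusted p = 0.00013), and ADAR, at 142 and 144 in HBSS and 87.7 and 111 with Torin, by 0.53 ± 0.11 (adjusted p = 3.8e-05). For each of these 5 members the libraries of one treatment lay apart from those of the other, as they did in 74% of all genes and in 35 of 40 members. The 5 calls held under every alternative, including those that kept the shared column. SAMD9 (-1.59), DDX60 (-1.52), IFIT5 (-1.33), TRIM21 (-1.26), MX1 (-1.19), IFI44L (-1.14) and USP18 (-1.07) were also at least 2-fold lower in HBSS and IFI27 (1.46) at least 2-fold higher, where 9.64% of all genes passed and were lower and 6.95% higher by that much, but each was lost where the shared column was kept in at least 1 of the groups. Without that column, DDX60, IFI44L, USP18, MX1 and TRIM21 were lost without 1 library, namely HBSS replicate 1 for DDX60 and IFI44L, HBSS replicate 2 for USP18, Torin replicate 2 for MX1 and either of the last 2 for TRIM21 (adjusted p 0.0619 to 0.2). PARP12, IFITM3, DTX3L, PSME1, PSME2 and TRIM25 made up the rest, at log2 differences of -0.96 to 0.66. Of the 19 calls, 14 were lost under another setting, each of these members among them, and 10 without 1 library.

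IFIT1, IFIT2, IRF9, DDX58 and IFI35 passed in none of the 16 comparisons between 2 groups. DDX58 encodes the RNA sensor RIG-I and was at 1.39 to 4.45 over the 25 libraries. IFIT1, a sensor of uncapped RNA, ranged from 0 to 4.24 within and across groups, so its spread was wide. IRF9, the DNA-binding partner of STAT2, was at 0.911 to 4.70, and its largest log2 difference in any comparison was 0.65. Across all members the calls thus came from 35 genes. Single comparisons between 2 groups called 4.87% to 51.6% of all genes. The share of all genes that passed in at least 1 of the 16 was not counted, so the 35 is no result about the members.

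The rest of the interferon pathway was followed through lists of genes that are not members. None of 19 interferon ligand genes was among the genes tested. Of 11 receptors and signal transducers, 10 were tested, and with Torin 2 passed lower in WT and 3 in each knockout, where 21% to 26.2% of all genes did. In the higher direction 1 passed in WT, TFE3 KO and DKO each, where 20.5%, 25.4% and 25.4% of all genes did. Without drug 1 passed higher in TFEB KO against WT and 1 in DKO, where 7.46% and 5.64% of all genes did. IFNAR2, a chain of the type I receptor, was at 5.86 to 7.38 with Torin in TFEB KO against 13.4 to 15.0 (-1.04 ± 0.27, adjusted p = 0.0015). Among 8 feedback inhibitors tested, 2 passed higher and 3 lower with Torin in WT (20.5% and 23.4% of all genes), and SOCS3 was 2-fold lower there (-1.05 ± 0.33, adjusted p = 0.0089).

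Of 13 genes of nucleic acid sensing tested, 1 passed higher and 6 lower in HBSS, where 23.6% of all genes were higher and 24.7% lower. IKBKE, a kinase that activates IRF3, was at 1.84 to 3.77 against 7.52 to 12.2 (log2 fold change -1.54 ± 0.25, adjusted p = 9.5e-07), and TMEM173, which encodes the adaptor STING, at 1.38 to 3.14 against 4.93 to 8.39 (-1.35 ± 0.28, adjusted p = 7.7e-05). RNASEH2A, a subunit of ribonuclease H2, was 1.01 lower on the log2 scale. Of 28 other interferon-induced genes tested, 4 passed higher in TFEB KO against WT and 6 in DKO, against the 16 and 15 of 40 members and 7.46% and 5.64% of all genes. IFI30, a lysosomal thiol reductase, was at 14.8 to 16.9 in TFEB KO and 11.3 to 13.1 in DKO against 4.55 to 7.40 in WT (1.42 ± 0.19 and 1.04 ± 0.19, adjusted p = 3.0e-07 and 5.4e-05), and it stayed at 5.37 to 6.39 in TFE3 KO. With Torin, 9 of the 28 passed higher and 7 lower in WT, where 20.5% and 23.4% of all genes did.

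The promoter motifs were set beside these directions as a description. Of the 14 members higher in TFEB KO that had a promoter in the table, 9 held the ISRE core (64.3%), and of the 23 that did not pass 16 held it (69.6%). Among the 5 members higher with Torin in all genotypes, DDX60, PARP14 and IFI44L held it and STAT2 and SP110 did not (60%). The E-box was in 2 of the 14 (14.3%) and in 0 of the 5.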

How the data were processed

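QuantSeq Forward 3′ libraries of 501mel cells were trimmed by the authors with cutadapt 2.10, checked with FastQC 0.11.9, aligned with STAR 2.7.8a to hg38 and normalised with edgeR, per the paper's methods and the submitters' notes. The read counter, scaling method and gene filter are not given in the sources used here. The deposited signal values are CPM divided by a library factor. Whole reads were recovered for 100% of values (tolerance 0.01), giving 4147050 to 6526392 reads per library.

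Genes with a value of 1 or more in at least 3 of 25 libraries were kept (13052 of 13523), and limma 3.58.1 (R 4.3.3; lmFit, then eBayes with trend and robust) was fitted once to log2(value + 1) of all 25 libraries, with Benjamini-Hochberg adjustment over all genes tested. The settings varied were the pseudocount (0.1), the filter (none, or at least 5), median-of-ratios rescaling, edgeR 4.0.16 quasi-likelihood and DESeq2 1.42.0 on the recovered reads, only the compared libraries, a replicate block, the duplicated column kept, and each library left out. An alternative counts for a call only where the gene was tested in it, and the filter of at least 5 left out some low members. Scripts were tested on simulated data. Members and lists were chosen with earlier results of these data known. By the rule for named genes, members passing at 2-fold were named with up to 3 of the highest and 3 of the lowest others, and pathway genes passing at 2-fold, up to 4 a list; further members that passed are named to account for all of them. Some pathway genes that the rule allows are not reported here. RefSeq promoters (GRCh38.p14) were matched by symbol for 39 of 44 listed genes. Gene positions are from GENCODE v44.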

Additional observations from a re-analysis of the deposited data

Results flagged for a closer look

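The difference between the Torin responses of TFEB KO and WT passed for STAT2 (adjusted p = 0.0449, limma). The added tests between knockouts also passed for 3 of 40 members, where 7.68% (TFE3 KO) and 5.62% (DKO) of all genes passed. Against TFEB KO, the log2 Torin response in TFE3 KO was larger by 0.80 for IFITM2, 0.56 for IFITM3 and 0.71 for STAT2, and in DKO by 0.92, 0.68 and 0.63 for the same genes. The IFITM2 difference of TFE3 KO was lost in 8 of 12 fits without 1 library. These tests were chosen after seeing the data.

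The column present under both HBSS and Torin was left out of the main fit and kept only in alternative fits. It held values above 1.5 times the highest WT control and above the value of 3 reads for 4 members: UBE2L6 at 0.757, HERC6 at 1.33, IFIH1 at 3.22 and IFI27 at 3.03. The column lay nearer the HBSS mean in 15 of the 19 members that passed between HBSS and Torin, and the labels list it under both. No group had the 4 libraries that a test of single outlying libraries needs.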

How the results depend on the processing

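Of 196 calls of members, 88 held under every alternative in which the gene was tested. Of the other calls, 101 were lost without 1 library and 59 under another setting. Leaving out 1 library in turn gave counts of members that passed of 8 to 12 for HBSS, 6 to 11 for Torin in WT, 2 to 3 for TFE3 KO, 9 to 16 for DKO, 2 to 5 for DKO against TFE3 KO, 3 to 9 for DKO against TFEB KO and 13 to 17 for HBSS against Torin. Under Torin the ranges were 0 to 3 for TFE3 KO, 5 to 10 for TFEB KO and 4 to 8 for DKO against WT, and for the difference of Torin responses between TFEB KO and WT 0 to 2. The HBSS count of 14 was 9 with DESeq2 and 9 with the duplicated column kept as Torin, and that of HBSS against Torin was 9 with it as Torin and 8 with it in both groups. TFE3 KO against WT under Torin gave 5 with it in both groups. The response difference of TFEB KO gave 0 with only the compared libraries and 0 with the column kept as HBSS, as Torin or in both.

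The direction turned for SP110 in HBSS when 1 library was left out in turn (0.006 without HBSS replicate 1, down to -0.709 without replicate 2), for SAMD9 with Torin in WT (-0.028 with the column as Torin and in both groups) and for STAT2 in TFEB KO against WT under Torin (0.075 in both of those settings). The cause was not tested. Replicate numbers did not pair the libraries: 4 of 63 same-number pairs had a correlation of deviations above 0.1 (median 0.007), and 8 of 21 libraries were closest to their own number. With a replicate block, 17 members passed in TFEB KO and 15 in DKO against WT, 14 in HBSS and 11 with Torin in WT. Under Torin, TFEB KO against WT fell from 14 to 11 (IRF1, IFI27 and IFI44 were lost), and BST2 was lost in DKO against WT. Low members limit the precision: 7 had a median value under 1.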
